A study of Mus musculus with 9 samples.

Results

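The 10 genes described here are mouse genes of antigen presentation by major histocompatibility complex (MHC) molecules. They were taken by name from a table of 54532 genes: H2-K1, H2-D1, B2m and Nlrc5 for class I, and H2-Aa, H2-Ab1, H2-Eb1, Cd74, Ciita and H2-DMa for class II. The RNA came from livers of 9 male mice of strain C57BL/6, with 3 livers per group (NC, vehicle and AMSC). NC mice were the normal controls, and the sources used here do not say whether they were fasted. Vehicle mice had no food overnight, received 500 mg/kg acetaminophen (APAP) into the peritoneum and were studied after 6 h. AMSC mice received the same APAP dose and then, straight away, adipose-derived mesenchymal stromal cells (AMSCs) through the tail vein, and were also studied at 6 h. The AMSCs came from inguinal fat of the same mouse strain, so RNA of the injected cells cannot be told apart from RNA of the recipient. Libraries are named by the replicate numbers of their labels, which are 1, 2 and 3 in the NC and vehicle groups and 2, 3 and 4 in AMSC livers.

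MHC class I molecules sit on nearly all nucleated cells, hepatocytes included, and show peptides from inside the cell to cytotoxic T cells. Each consists of a heavy chain, such as the product of H2-K1 or H2-D1, and the shared light chain beta-2-microglobulin, encoded by B2m. MHC class II molecules are made mainly by B cells, dendritic cells, macrophages and some endothelial cells, and show peptides from engulfed material to helper T cells. H2-Aa encodes an alpha chain, H2-Ab1 and H2-Eb1 encode beta chains, Cd74 encodes the invariant chain that escorts the newly made molecule, and H2-DMa encodes a chain of the exchange factor that swaps the invariant chain fragment for a peptide. Nlrc5 and Ciita are related coactivators that switch on the class I and the class II genes, respectively. Both work through a promoter module bound by RFX, CREB and NF-Y factors.

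The promoter sequences of 4 members are shown so that the class I and class II motif letters around that module can be read side by side. They are RefSeq sequences on GRCm38.p6, from 180 to 31 bases before the RefSeq start site, printed 5′ to 3′ on the strand of the gene. The stretch of H2-K1 ends before its CCAAT match, which lies at bases -16 to -12 from the start site. Of the 10 members, 6 had a promoter entry. Capitals mark matches, on either strand, to CCAAT (the letters bound by NF-Y), GCAAC (part of the X1 box bound by RFX), TGACG (part of a CREB site), AANNGAAA (an interferon regulatory factor site) or GGGNNTTCC (an NF-kappaB site). The H2-K1 sequence is chr17:34000378-34000527 on the minus strand, B2m is chr2:122147507-122147656 on the plus strand, H2-Aa is chr17:34287854-34288003 on the minus strand, and H2-Eb1 is chr17:34305687-34305836 on the plus strand.
H2-K1: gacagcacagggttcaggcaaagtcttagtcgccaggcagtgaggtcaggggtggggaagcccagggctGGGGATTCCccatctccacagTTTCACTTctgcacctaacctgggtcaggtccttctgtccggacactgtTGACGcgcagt
B2m: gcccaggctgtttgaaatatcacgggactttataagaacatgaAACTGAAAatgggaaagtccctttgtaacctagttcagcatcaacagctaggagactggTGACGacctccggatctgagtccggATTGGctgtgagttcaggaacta
H2-Aa: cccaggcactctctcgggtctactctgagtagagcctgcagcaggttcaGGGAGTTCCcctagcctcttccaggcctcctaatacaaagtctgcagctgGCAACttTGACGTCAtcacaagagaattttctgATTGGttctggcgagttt
H2-Eb1: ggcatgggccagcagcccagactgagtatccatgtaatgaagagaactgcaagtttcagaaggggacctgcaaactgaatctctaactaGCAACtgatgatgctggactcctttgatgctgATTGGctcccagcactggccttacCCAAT

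Over the 250 bases before the start site, the class I promoters of H2-K1, H2-D1 and B2m each held TGACG and, 20 bases further on, CCAAT on the other strand. An AANNGAAA match lay 41 bases before the TGACG in H2-K1 and H2-D1 and 51 bases before it in B2m. The class II promoters of H2-Aa and H2-Eb1 each held GCAAC followed by CCAAT on the other strand, 28 and 27 bases further on. In H2-Aa, TGACG matches on both strands overlapped between these boxes, whereas H2-Eb1 had no TGACG match in the window. H2-Aa also held AANNGAAA, at bases -213 to -206, and H2-D1 also held GCAAC, at bases -212 to -208 and -14 to -10. H2-Aa thus held the letters described for class I, and H2-D1 those described for class II, so the letters alone do not separate the classes. The sixth entry, H2-DMa, held a GCAAC match and none of the other motifs. The set for comparison held the first RefSeq entry of each gene, whereas for the members shown here the start site farthest upstream was taken. Of the 27025 promoters of the same length in this set, 34.5% held CCAAT, 30.1% GCAAC, 17.9% TGACG, 21.6% AANNGAAA and 4.88% GGGNNTTCC. The NF-Y, CREB and interferon regulatory factor letters occurred together in 1.14% of them, and the X1 box and NF-Y letters in 10.8%. The motif letters and the window were chosen after these promoters had been read, so the matches describe the sequences and nothing more.

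The class I chains were among the abundant transcripts of every liver, and the class II genes lay far below them. Levels are given in FPKM (fragments divided by the length of the gene and by a size set for the library). FPKM is per length and so allows genes to be compared. The mean over the 9 libraries fell from 1569 FPKM for B2m through 541 for H2-K1, 251 for H2-D1, 46.9 for Cd74, 17.1 for H2-Eb1, 13.0 for H2-Ab1, 10.3 for H2-Aa, 1.94 for H2-DMa and 1.48 for Nlrc5 to 0.0774 for Ciita. Every neighbouring pair in this order kept its order in all 9 libraries except H2-DMa and Nlrc5, which kept it in 6. The libraries held 13418921 to 16210930 reads on genes, and a read on a gene of 1 kb was worth 0.0578 to 0.0807 FPKM, so the level of Ciita rested on 4 to 20 reads per library. Hepatocyte markers summed to 38030 to 64514 FPKM, as the labelled tissue would hold. The library described as NC replicate 3 carries another date, and the number 1, in its title, and the member counts against NC are also given without it.

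**Figure D1:**
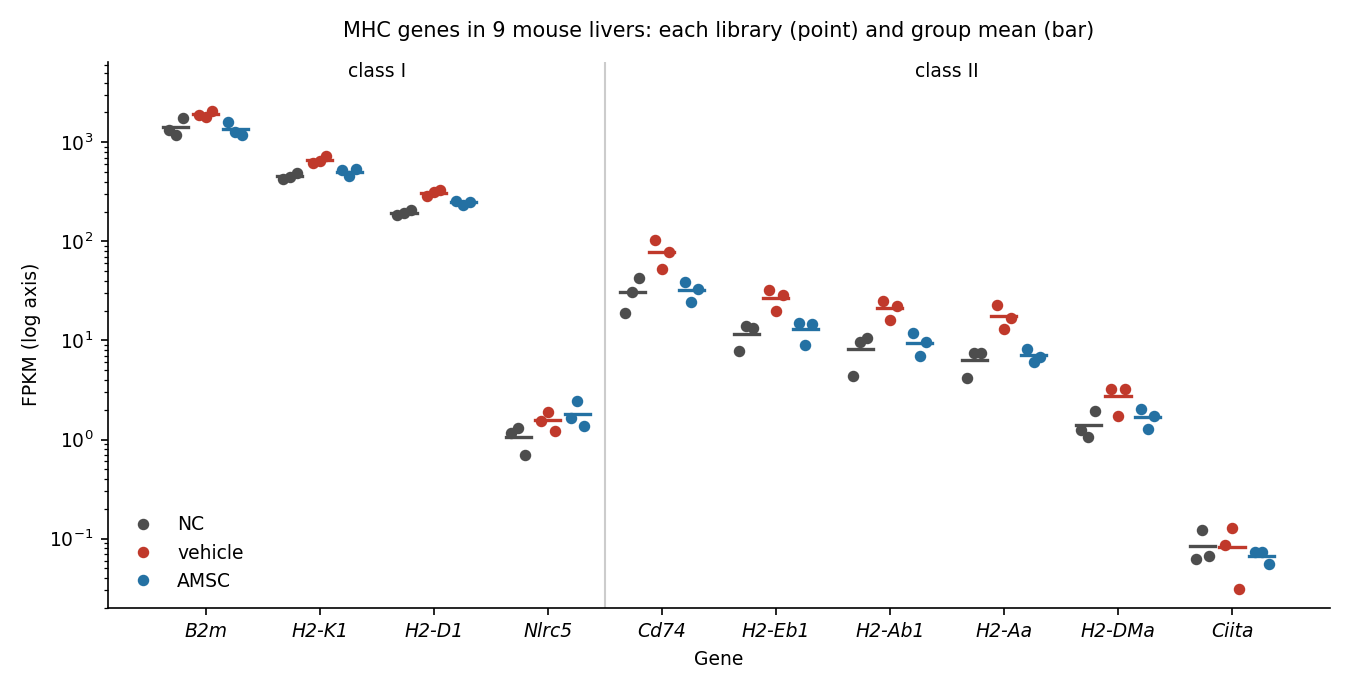
FPKM (log axis) of the 10 MHC genes in each library, with points in replicate order, a bar at the group mean and colours for the NC, vehicle and AMSC groups (3 libraries each). The vehicle points of H2-K1, H2-D1, B2m, Cd74, H2-Eb1, H2-Ab1 and H2-Aa all lie above those of both other groups, and Ciita is at most 0.127 FPKM.

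In the APAP-treated vehicle livers, the class II chains and the invariant chain rose, their summed level reaching 2.51 times that of NC livers, and the class I heavy chains H2-K1 and H2-D1 rose by less. The log2 fold changes on the log2(FPKM + 1) scale were 1.14 to 1.33 for H2-Aa, H2-Ab1, H2-Eb1 and Cd74, and 0.54 and 0.67 for H2-K1 and H2-D1. Of the 9 members tested, 6 were higher by limma with Benjamini-Hochberg adjustment over all 9699 genes tested (adjusted p of at most 0.05), where 12.8% of all genes tested were higher and 13.1% lower. No member was lower, also at an unadjusted p below 0.05 or with voom. The 4 class II genes also passed the study's rule for differentially expressed genes (DEGs), which adds a log2 fold change of at least 1 and was met by 7.9% of the genes tested. The groups did not overlap for 7 of the 9 members, against 43.2% of the genes tested. The median log2 fold change was 0.67 over the members and -0.0043 over all genes tested. Without NC replicate 3, 7 members passed, and the log2 fold change was 0.60 for H2-K1, 0.71 for H2-D1 and 1.25 to 1.59 for the 4 class II genes.

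In AMSC livers the class II chains and Cd74 were below every vehicle library, and 2 of these 4 genes passed the test. H2-Aa and H2-Ab1 fell by 1.17 and 1.09 on the log2 scale, and both were DEGs. Among all genes tested, 2.14% were lower, 1.64% higher and 1.96% DEGs. The remaining members did not pass, with log2 fold changes from -1.21 for Cd74 to 0.13 for Nlrc5. For 7 of the 9 members every AMSC library was below every vehicle library, against a share of 27% of the genes tested whose groups did not overlap in either direction. The median was -0.51 over the members and 0.013 over all genes tested.

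**Figure D2:**
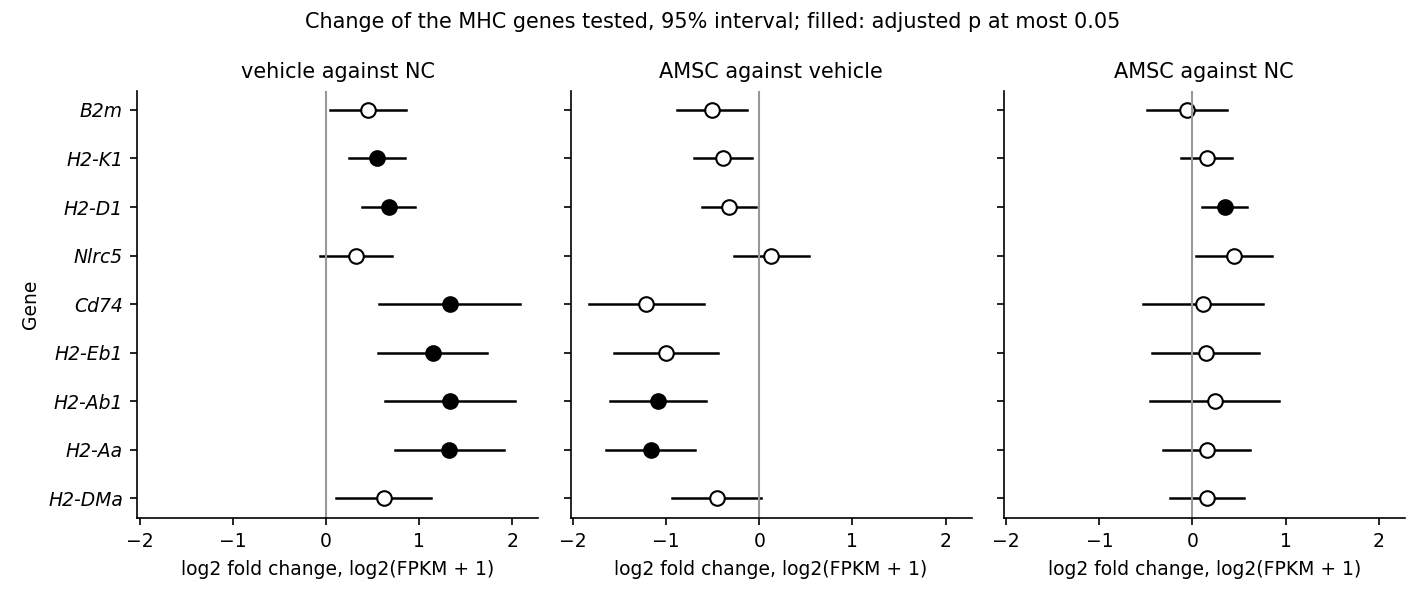
Log2 fold change on the log2(FPKM + 1) scale of the 9 MHC genes tested, with its 95% interval from limma, in the 3 comparisons. Filled circles have an adjusted p of at most 0.05, which held for 6 genes in vehicle against NC, for H2-Aa and H2-Ab1 in AMSC against vehicle and for H2-D1 in AMSC against NC.

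Between the AMSC and NC groups, H2-D1 was the member that passed the test, with a log2 fold change of 0.35. Of all genes tested, 14.1% were higher and 11.9% lower in this comparison. None of the 9 members was a DEG in limma, where 6.01% of the genes tested were, and at an unadjusted p below 0.05 there were 2 higher members and none lower. The groups did not overlap for H2-D1 and Nlrc5, against 43.5% of the genes tested. Without NC replicate 3, H2-D1 remained the member that passed (0.39, adjusted p = 0.0478, where the alternatives ranged from 0.0396 to 0.613). The median was 0.15 over the members and 0.016 over all genes tested. The comparisons share their groups, so their values are given side by side and not as separate evidence.

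H2-K1 (ENSMUSG00000061232, GRCm38 chr17:33996017-34000333, minus strand) encodes the K heavy chain. It was at 427, 443 and 493 FPKM in NC replicates 1 to 3, at 616, 650.0 and 719.8 in vehicle replicates 1 to 3, and at 529, 458 and 531 in AMSC replicates 2 to 4. Every vehicle library was above every other library, and the NC and AMSC groups overlapped. The mean was 454 ± 34.6 FPKM in NC livers, 662 ± 52.8 in vehicle livers and 506 ± 41.7 in AMSC livers (SD, n = 3). In vehicle against NC the log2 fold change was 0.54 (SE 0.13, adjusted p = 0.0196 from limma). It was -0.39 (adjusted p = 0.160) in AMSC against vehicle and 0.15 (adjusted p = 0.375) in AMSC against NC.

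H2-D1 (ENSMUSG00000073411, chr17:35262730-35267499, plus strand), the D heavy chain, followed the same order of groups. Its values were 183, 195 and 206 FPKM in NC livers, 289, 311 and 331 in vehicle livers and 257, 233 and 251 in AMSC livers. No groups overlapped, and the AMSC group lay between the other two. In vehicle against NC the log2 fold change was 0.67 (SE 0.12, adjusted p = 0.00714 from limma), in AMSC against vehicle -0.33 (adjusted p = 0.189) and in AMSC against NC 0.35 (SE 0.11, adjusted p = 0.0440). The ratio of H2-K1 to H2-D1 was 2.34 ± 0.0621 in NC livers, 2.13 ± 0.0431 in vehicle livers and 2.05 ± 0.0768 in AMSC livers. The NC ratios lay above all others (exact permutation test, two-sided, p = 0.1 against either group, the smallest that 3 against 3 libraries allow).

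Both heavy chain genes depended on how the libraries were scaled to each other. The library sizes behind the FPKM values were 1.67e+07 to 1.73e+07 in NC livers and 1.24e+07 to 1.34e+07 in vehicle livers. In AMSC livers they were 1.30e+07 to 1.59e+07. These sizes lay above the reads on genes in every NC library and below them in every vehicle and AMSC library. Levels in NC livers were thus scaled down relative to the other groups. Voom used the same sizes, and scaling by reads on genes was not tried. Genes of high abundance lay higher in vehicle livers as a class: the median log2 fold change against NC was 0.25 over the 514 genes whose mean reached 100 FPKM, of which 74.3% were above 0. Of the 6 hepatocyte markers, Alb (0.64, adjusted p = 0.0106) and Apoa1 (0.70, adjusted p = 0.0345) were higher too, and with quantile normalization neither was. With quantile normalization the change of H2-K1 in vehicle against NC was 0.21 (adjusted p = 0.277) and that of H2-D1 0.34 (adjusted p = 0.0583), so neither passed, over ranges of adjusted p across the alternatives of 0.00827 to 0.277 and of 0.00173 to 0.0583. H2-K1 also did not pass without NC replicate 1 (adjusted p = 0.0959), NC replicate 2 (adjusted p = 0.0736) or vehicle replicate 2 (adjusted p = 0.0613). In AMSC against NC, H2-D1 did not pass with quantile normalization (0.10, adjusted p = 0.459) or without NC replicate 1, NC replicate 2, AMSC replicate 2 or AMSC replicate 4 (adjusted p = 0.161, 0.109, 0.123 and 0.119), and its adjusted p over the alternatives was 0.0396 to 0.613. Of the 100-base windows in the transcripts of H2-K1, 0.957% also occur in transcripts of other genes, mostly H2-Q10, H2-Q5 and H2-Q7, and of those of H2-D1 3.59%, mostly H2-Q1, Gm7030 and H2-T23, so a small share of reads could be split between these genes.

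B2m (ENSMUSG00000060802, chr2:122147686-122153083, plus strand), the light chain of all class I molecules, was the most abundant member. It stood at 1336, 1176 and 1760.4 FPKM in NC livers, 1901, 1784 and 2080.2 in vehicle livers and 1621, 1280.3 and 1177 in AMSC livers. The vehicle libraries were the 3 highest, with NC replicate 3 just below them. The differences did not pass the test, and the log2 fold change was 0.45 (SE 0.17, adjusted p = 0.0974) in vehicle against NC, -0.51 (SE 0.16, adjusted p = 0.136) in AMSC against vehicle and -0.06 (95% interval -0.49 to 0.37, adjusted p = 0.842) in AMSC against NC. Without NC replicate 3, B2m passed in vehicle against NC with 0.61 (adjusted p = 0.0338, where the alternatives ranged from 0.0338 to 0.604). With quantile normalization the AMSC group was below the NC group by -0.51 (adjusted p = 0.0337, where the alternatives ranged from 0.0337 to 0.999). The ratio of B2m to the sum of the heavy chains lay between 1.51 and 2.52 in the 9 libraries. B2m overlaps Patl2 on the other strand.

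Nlrc5 (ENSMUSG00000074151, chr8:94434356-94527272, plus strand), the class I coactivator, was at 1.17, 1.31 and 0.70 FPKM in NC livers, 1.55, 1.91 and 1.23 in vehicle livers and 1.66, 2.43 and 1.37 in AMSC livers. The vehicle group overlapped with both others, and the AMSC libraries were all above the NC libraries. No comparison passed: the log2 fold changes were 0.32 (adjusted p = 0.202) in vehicle against NC, 0.13 (adjusted p = 0.735) in AMSC against vehicle and 0.45 (adjusted p = 0.102) in AMSC against NC. The value in AMSC against vehicle has an interval of -0.28 to 0.53 and was -0.021 without AMSC replicate 3. Nlrc5 overlaps 9330175E14Rik on the other strand and Mir7072 on its own.

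H2-Aa (ENSMUSG00000036594, chr17:34282744-34287827, minus strand) encodes the alpha chain of the A molecule. It was at 4.22, 7.50 and 7.50 FPKM in NC livers, 22.6, 13.0 and 16.8 in vehicle livers and 8.26, 6.12 and 6.85 in AMSC livers. All vehicle libraries were above all others, and NC replicate 1 was the lowest. The log2 fold change was 1.32 (SE 0.25, adjusted p = 0.00870 from limma) in vehicle against NC, -1.17 (SE 0.20, adjusted p = 0.0287) in AMSC against vehicle and 0.15 (95% interval -0.32 to 0.62, adjusted p = 0.621) in AMSC against NC. In these bulk libraries, fewer cells of a type and less RNA per cell cannot be told apart.

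H2-Ab1 (ENSMUSG00000073421, chr17:34263209-34269418, plus strand), the beta chain of the same molecule, was at 4.39, 9.71 and 10.5 FPKM in NC livers, 25.1, 16.2 and 22.5 in vehicle livers and 11.96, 6.91 and 9.71 in AMSC livers. The vehicle group again stood apart from both others, which overlapped. The log2 fold change was 1.33 (SE 0.30, adjusted p = 0.0162) in vehicle against NC, -1.09 (SE 0.22, adjusted p = 0.0432) in AMSC against vehicle and 0.24 (95% interval -0.45 to 0.93, adjusted p = 0.596) in AMSC against NC.

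H2-Eb1 (ENSMUSG00000060586, chr17:34305877-34316199, plus strand) encodes the beta chain of the E molecule. C57BL/6 mice are known to lack a working alpha chain for it, so no E molecule reaches the surface, but the gene is transcribed. It was at 7.80, 13.9 and 13.4 FPKM in NC livers, 32.2, 19.7 and 28.5 in vehicle livers and 15.0, 9.03 and 14.7 in AMSC livers, with the vehicle group above both others. In vehicle against NC the log2 fold change was 1.14 (SE 0.25, adjusted p = 0.0147). In AMSC against vehicle it was -1.001 (SE 0.24, adjusted p = 0.0677), and in AMSC against NC 0.14 (adjusted p = 0.712).

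Cd74 (ENSMUSG00000024610, chr18:60803848-60812646, plus strand), the invariant chain gene, was the most abundant class II gene. Its values were 19.0, 30.7 and 42.4 FPKM in NC livers, 103, 52.2 and 77.5 in vehicle livers and 38.9, 24.5 and 33.3 in AMSC livers. Vehicle replicate 2 was the lowest of its group and still above every NC and AMSC library, as it was for H2-Aa, H2-Ab1 and H2-Eb1. The log2 fold change was 1.33 (SE 0.33, adjusted p = 0.0223) in vehicle against NC, -1.21 (SE 0.27, adjusted p = 0.0505) in AMSC against vehicle and 0.11 (95% interval -0.53 to 0.75, adjusted p = 0.802) in AMSC against NC. Cd74 did not pass in vehicle against NC without NC replicate 1, NC replicate 2 or vehicle replicate 3 (adjusted p = 0.0620, 0.0627 and 0.0586, where the alternatives ranged from 0.0105 to 0.12). It also did not pass in the fit of all genes above 0 (adjusted p = 0.12). Mir5107 lies within it on the same strand.

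The summed level of H2-Aa, H2-Ab1, H2-Eb1 and Cd74 was 35.5, 61.8 and 73.9 FPKM in NC livers, 183, 101.1 and 145 in vehicle livers and 74.2, 46.6 and 64.6 in AMSC livers. The vehicle mean was 2.51 times the NC mean, and the AMSC mean was 0.431 times the vehicle mean. The ratio of Cd74 to H2-Aa stayed between 4.01 and 5.66 in all libraries, and that of H2-Ab1 to H2-Aa between 1.04 and 1.45, and the groups overlapped for both. The ratio of H2-Eb1 to H2-Aa was 1.79 to 1.85 in NC livers, 1.42 to 1.70 in vehicle livers and 1.48 to 2.15 in AMSC livers, and the vehicle group was below the NC group without overlap (exact permutation test, two-sided, p = 0.1). When all 24849 genes above 0 were fitted, none of H2-Aa, H2-Ab1, H2-Eb1 and Cd74 passed in vehicle against NC (adjusted p = 0.0645, 0.0994, 0.0882 and 0.12). Over the alternatives their adjusted p ranged from 0.00264 to 0.0645, 0.00819 to 0.0994, 0.00939 to 0.0882 and 0.0105 to 0.12. In AMSC against vehicle the calls of this set rested on few libraries. H2-Aa did not pass without vehicle replicate 3, AMSC replicate 2, AMSC replicate 3 or AMSC replicate 4 (adjusted p = 0.0824, 0.0660, 0.108 and 0.107), and H2-Ab1 did not pass without these (adjusted p = 0.122, 0.0681, 0.131 and 0.129) or without vehicle replicate 1 (adjusted p = 0.0777). Without vehicle replicate 2, all 4 genes passed, Cd74 with -1.47 (adjusted p = 0.0247) and H2-Eb1 with -1.20 (adjusted p = 0.0457). Over the alternatives the adjusted p ranged from 0.018 to 0.145 for H2-Aa, 0.0315 to 0.188 for H2-Ab1, 0.0457 to 0.237 for H2-Eb1 and 0.0247 to 0.215 for Cd74, and the log2 fold changes stayed between -1.47 and -0.78.

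H2-DMa (ENSMUSG00000037649, chr17:34135182-34139101, plus strand), a chain of the peptide exchange factor, was at 1.24, 1.06 and 1.95 FPKM in NC livers, 3.23, 1.72 and 3.26 in vehicle livers and 2.03, 1.27 and 1.74 in AMSC livers, from 27 to 72 reads per library. Vehicle replicate 2 fell within the range of both other groups. The log2 fold change in vehicle against NC was 0.62 (SE 0.22, adjusted p = 0.0750). It passed with the replicate number as a block (adjusted p = 0.0261), a block that pairs vehicle replicate 3 with the NC library of another title number and date, without vehicle replicate 2 (0.83, adjusted p = 0.0274) and with all libraries in the fit (adjusted p = 0.0485), where the alternatives ranged from 0.0261 to 0.224. In AMSC against vehicle it was -0.46 (adjusted p = 0.256), and in AMSC against NC 0.16 (adjusted p = 0.541). The ratio of H2-DMa to H2-Aa was 0.132 to 0.195 in vehicle livers and 0.207 to 0.254 in AMSC livers, which did not overlap (exact permutation test, two-sided, p = 0.1), while the NC ratios of 0.141 to 0.294 overlapped with both.

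Ciita (ENSMUSG00000022504, chr16:10480059-10528418, plus strand), the class II coactivator, was near the limit of detection and below the 1 FPKM mean needed for testing. It was at 0.0629, 0.121 and 0.0670 FPKM in NC livers, 0.0860, 0.127 and 0.0312 in vehicle livers and 0.0726, 0.0726 and 0.0558 in AMSC livers. All groups overlapped. In a fit of all 24849 genes above 0, its log2 fold change was -0.0036 in vehicle against NC, -0.018 in AMSC against vehicle and -0.022 in AMSC against NC (adjusted p = 1, 0.835 and 0.617 from limma). With so few reads, and a pseudocount of 1 FPKM that far exceeds its level, a change of Ciita was not detectable at this depth. It overlaps Dexi on the other strand, which was at 3.49 to 10.6 FPKM.

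Beyond the members, several other class I heavy chain genes were higher in vehicle livers than in NC livers. Of 20 other class I heavy chain genes, 11 were tested, and in vehicle against NC 4 were higher and 1 lower, with a median of 0.37. The shares over all genes tested were 12.8% higher and 13.1% lower in this comparison. The higher genes were H2-Q4 (0.95, adjusted p = 0.0250), H2-Q6 (0.62, adjusted p = 0.0389), H2-Q10 (0.60, adjusted p = 0.0119) and H2-T23 (0.52, adjusted p = 0.0291), and the lower gene was H2-Q1 (-0.59, adjusted p = 0.0379). H2-Q10, whose product is secreted by the liver, was at 275 to 311 FPKM in NC livers, 428 to 487 in vehicle livers and 309 to 381 in AMSC livers. With quantile normalization, H2-Q4 remained higher and H2-Q1 lower, and H2-Q6, H2-Q10 and H2-T23 did not pass. No gene of this list passed in AMSC against vehicle or AMSC against NC, by limma or voom, and at an unadjusted p below 0.05 these had 1 higher and 5 lower, and 1 higher and 1 lower. The list's calls in vehicle against NC fell from 5 to 2 without NC replicate 1 or vehicle replicate 2, to 1 without vehicle replicate 3 and to 0 without NC replicate 2.

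The peptide-loading list holds genes for bringing peptides to the class I molecule in the endoplasmic reticulum, and all 8 were tested. In vehicle against NC none was higher and 3 were lower: Pdia3 (-0.57, adjusted p = 0.0105), a disulfide isomerase, Tapbpl (-0.56, adjusted p = 0.0183), a tapasin-related editor, and Calr (-0.54, adjusted p = 0.0218), the chaperone calreticulin. In AMSC against NC 6 were lower, led by Pdia3 (-0.98, adjusted p = 0.000506), Calr (-0.88, adjusted p = 0.00237), the peptide transporter subunit Tap1 (-0.75, adjusted p = 0.00352) and the chaperone Canx (-0.56, adjusted p = 0.00671), and Tap1 was also lower in AMSC against vehicle (-0.64, adjusted p = 0.0484). Among all genes tested, 13.1% were lower in vehicle against NC, 2.14% in AMSC against vehicle and 11.9% in AMSC against NC. The list's median was -0.25 in vehicle against NC, -0.29 in AMSC against vehicle and -0.56 in AMSC against NC. Pdia3 was at 153 to 156 FPKM in NC livers, 96.4 to 111 in vehicle livers and 70.5 to 82.4 in AMSC livers, and no groups overlapped. Pdia3, Calr and Canx are chaperones for many glycoproteins and are not particular to class I molecules. Without NC replicate 1 no gene of this list passed in vehicle against NC, without NC replicate 2 or vehicle replicate 2 1 did, and with quantile normalization the same 3 did. Tap1 in AMSC against vehicle did not pass when any single library was left out or with quantile normalization.

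**Figure D3:**
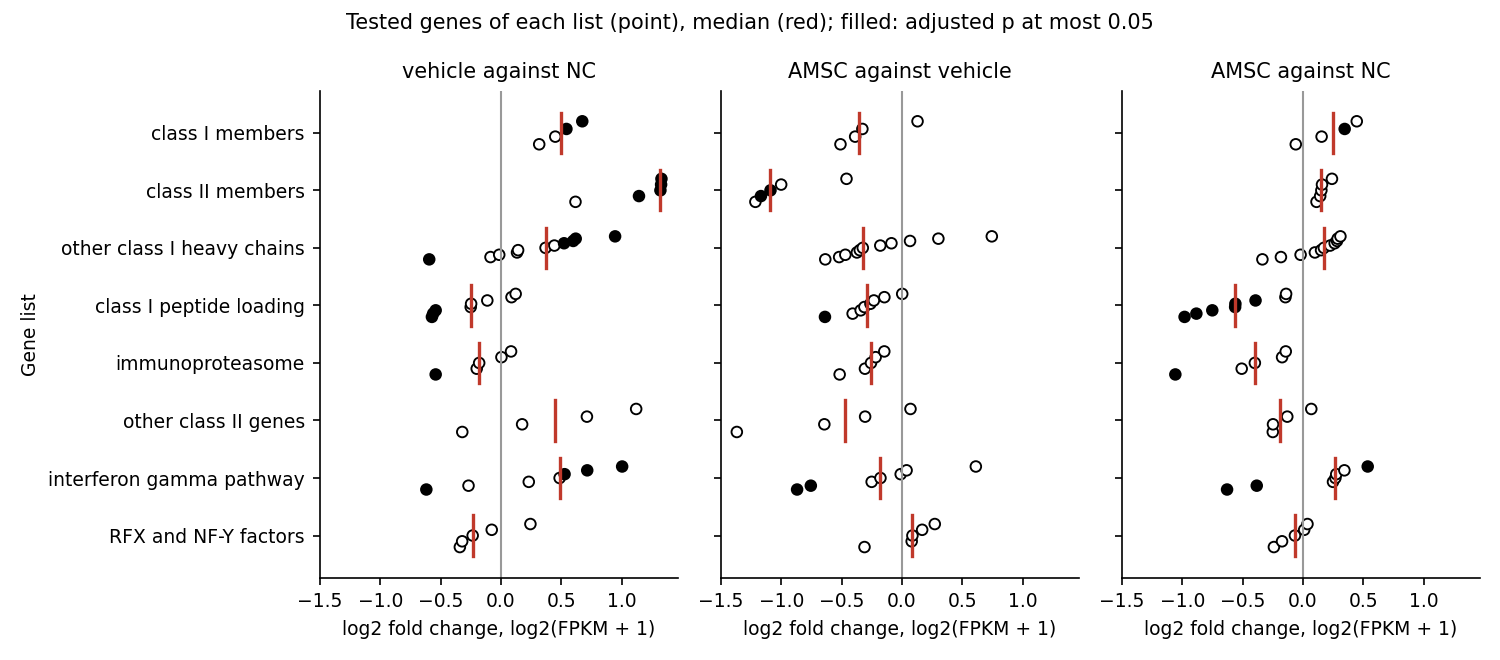
Log2 fold change on the log2(FPKM + 1) scale of each tested gene in the class I and class II members and in 6 further lists of antigen presentation, in the 3 comparisons. Points are genes, red lines list medians, and filled points have an adjusted p of at most 0.05; the peptide-loading median is below 0 in all 3 panels, and the class II member median moves from 1.32 to -1.09 to 0.15.

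Of the 5 immunoproteasome genes, which encode subunits and activators that shape class I peptides, 1 passed the test, Psmb9. It was lower in vehicle against NC (-0.54, adjusted p = 0.0282) and in AMSC against NC (-1.06, adjusted p = 0.00135). Among all genes tested, 13.1% and 11.9% were lower in these comparisons. In vehicle against NC, 2 of the 5 genes had positive log2 fold changes. Psmb9 was at 2.44 to 3.45 FPKM in NC livers, 1.49 to 1.91 in vehicle livers and 0.778 to 1.15 in AMSC livers. Its difference between vehicle and NC livers did not pass without NC replicate 2 or 3 or vehicle replicate 1 or 2. Of 10 other class II genes, 4 were tested (Ctss, Ifi30, H2-DMb1 and March8) and none passed in limma, with 2 higher in vehicle against NC and 2 lower in AMSC against vehicle at an unadjusted p below 0.05. Ctss, the protease that trims the invariant chain, was at 14.8 ± 7.71 FPKM in NC livers, 32.4 ± 11.6 in vehicle livers and 11.7 ± 3.54 in AMSC livers, and its adjusted p was 0.0626 in vehicle against NC and 0.0508 in AMSC against vehicle. With voom 1 gene of this list passed in each of these comparisons. Cd83, a membrane protein that keeps class II molecules at the cell surface, was below the limit for testing on average but was at 1.41 to 2.46 FPKM in vehicle livers, against 0.0899 to 0.452 in NC livers and 0.120 to 0.269 in AMSC livers. In the fit of all genes above 0 its log2 fold change was 1.14 (adjusted p = 0.0351) in vehicle against NC and -1.22 (adjusted p = 0.0963) in AMSC against vehicle. In the same limma fit H2-DMb2 was higher in AMSC against NC (0.28, adjusted p = 0.0406). H2-DMb2 was at 0.101 to 0.136 FPKM in NC livers and 0.270 to 0.428 in AMSC livers, far below the limit for testing. The remaining genes of this list below that limit did not pass in this fit.

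Interferon gamma is the classical inducer of both gene classes, and its own transcript, Ifng, was at 0 in 8 of the libraries and at 0.134 FPKM in NC replicate 2. Among the genes of its pathway reported here, the receptor chain Ifngr1 (0.71, adjusted p = 0.0141) and the kinases Jak1 (0.53, adjusted p = 0.0193) and Jak2 (1.004, adjusted p = 0.000867) were higher in vehicle against NC. In AMSC against vehicle, Jak2 (-0.76, adjusted p = 0.0259) and the transcription factor Irf1 (-0.87, adjusted p = 0.0483) were lower. In AMSC against NC, Ifngr1 was higher (0.54, adjusted p = 0.0477) and Irf1 lower (-0.38, adjusted p = 0.0255). The feedback inhibitor Socs1, below the limit for testing, was at 0.206 to 0.300 FPKM in NC livers, 0.667 to 1.89 in vehicle livers and 0.238 to 0.498 in AMSC livers. In vehicle against NC, Jak1 and Ifngr1 did not pass without NC replicate 1 or NC replicate 2, nor Jak1 without vehicle replicate 2. Jak2 in AMSC against vehicle did not pass without vehicle replicate 2 or 3 or any single AMSC library, and Irf1 did not without vehicle replicate 1 or 3 or any single AMSC library. The AMSC and NC groups no longer differed past the threshold in Ifngr1 without NC replicate 1 or 2 or AMSC replicate 3 or 4, or in Irf1 without NC replicate 1 or 2 or AMSC replicate 2 or 4.

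Of the 7 genes for the RFX, NF-Y and CREB factors that bind the promoters shown above, 5 were tested and none passed in any comparison, by limma or voom. At an unadjusted p below 0.05, 2 were lower in vehicle against NC, 1 was lower in AMSC against vehicle and none was higher. Rfx5, a DNA-binding subunit of the RFX complex, was below the limit for testing and was at 1.18, 1.17 and 0.645 FPKM in NC livers, 0.393, 0.470 and 0.311 in vehicle livers and 0.504, 0.728 and 0.654 in AMSC livers. Its vehicle values were below all others, with a log2 fold change against NC of -0.51 (adjusted p = 0.103) in the fit of all genes above 0.

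Markers of Kupffer cells and macrophages, which make class II molecules, were measured beside the class II genes. The 12 markers of Kupffer cells and macrophages, all of which were tested, summed to 113, 113 and 213 FPKM in NC replicates 1 to 3, 302, 169 and 416 in the vehicle replicates and 164, 104 and 99.96 in AMSC replicates 2 to 4. All 12 had positive log2 fold changes in vehicle against NC and negative ones in AMSC against vehicle (medians 0.92 and -1.15). In AMSC against NC, 3 were positive and 9 negative (median -0.25), whereas the 5 class II members tested were positive (median 0.15). Cd68, a lysosomal macrophage protein, was higher in vehicle against NC (1.38, adjusted p = 0.00337) and lower in AMSC against vehicle (-1.24, adjusted p = 0.0267), and Timd4, a receptor of resident Kupffer cells, was higher in vehicle against NC (1.02, adjusted p = 0.0497). No other marker of this list passed. Among all genes tested, 12.8% were higher in vehicle against NC and 2.14% lower in AMSC against vehicle. With the same replicate block, 8 of the 12 passed in vehicle against NC in place of 2, and without NC replicate 3, 5 did. Without vehicle replicate 2, 7 passed in vehicle against NC and 9 in AMSC against vehicle, while 0 passed in the latter without vehicle replicate 3, AMSC replicate 2 or AMSC replicate 4, and 1 in the former without NC replicate 1 or 2 or vehicle replicate 1 or 3. The ratio of the class II sum to this marker sum was 0.314 to 0.548 in NC livers, 0.349 to 0.606 in vehicle livers and 0.446 to 0.646 in AMSC livers, and all groups overlapped (exact permutation test, two-sided, p = 0.2 for vehicle against NC and p = 1 for AMSC against vehicle).

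**Figure D4:**
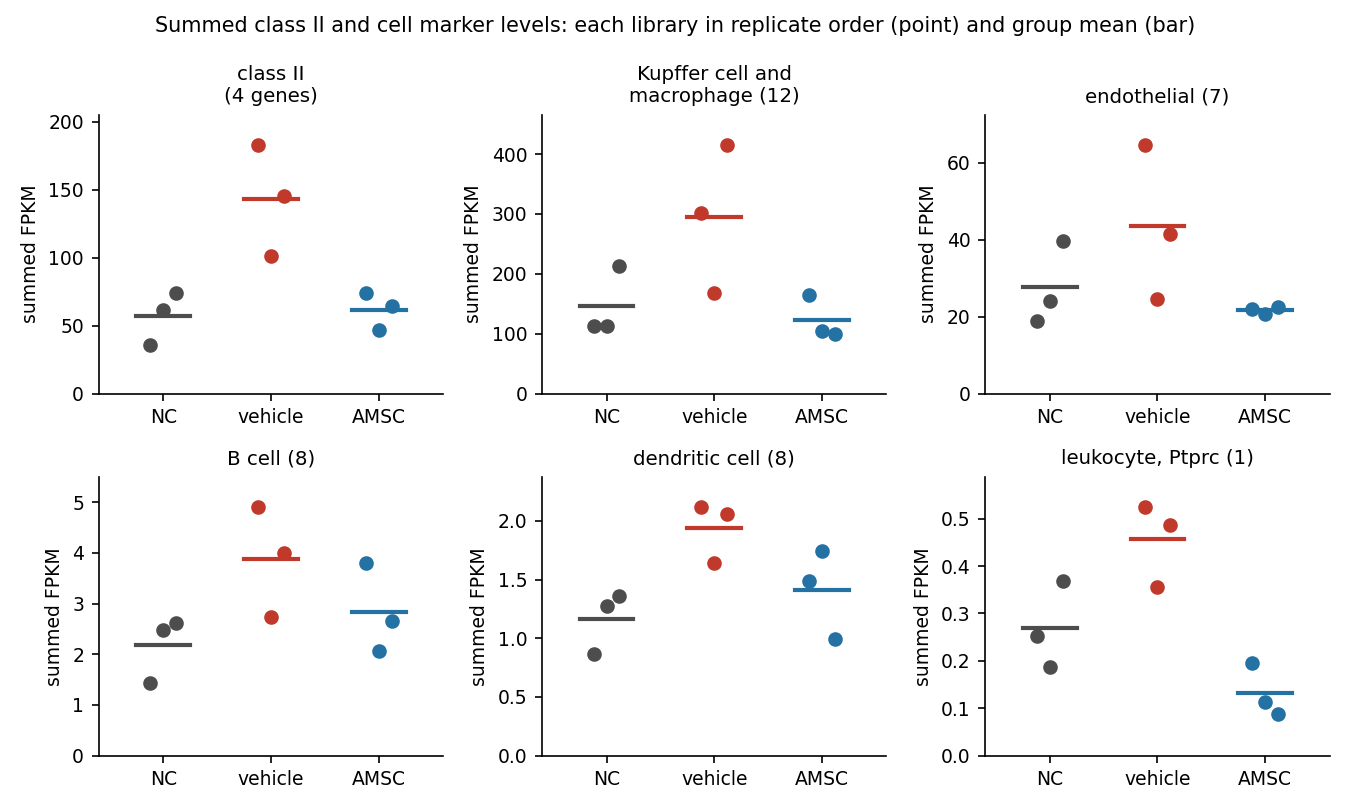
Summed FPKM of the class II genes H2-Aa, H2-Ab1, H2-Eb1 and Cd74 and of cell marker lists in each library, with points in replicate order and a bar at the group mean (3 libraries per group, axes from 0). The class II sums of the vehicle group (101.1 to 183 FPKM) lie above all others, and the Kupffer cell and macrophage sums are higher on average in vehicle livers but overlap with the NC group (169 in vehicle replicate 2, 213 in NC replicate 3).

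The 8 B cell markers summed to 1.43 to 2.62 FPKM in NC livers, 2.73 to 4.91 in vehicle livers and 2.07 to 3.80 in AMSC livers, with Ms4a1, Cd22, Pax5 and Fcmr below 1 FPKM in all libraries. The ratio of the class II sum to the B cell sum was 24.7 to 28.2 in NC livers, 36.4 to 37.3 in vehicle livers and 19.5 to 24.4 in AMSC livers, with no overlap of the vehicle group with the others (exact permutation test, two-sided, p = 0.1). The 8 dendritic cell markers summed to 0.866 to 1.36 FPKM in NC livers, 1.64 to 2.12 in vehicle livers and 0.994 to 1.74 in AMSC livers, and 7 of them were below 1 FPKM in all libraries. The 7 endothelial markers, all tested, summed to 19.0 to 39.6, 24.7 to 64.7 and 20.6 to 22.5 FPKM in the same order. Of these, 1 passed in vehicle against NC, Pecam1 (0.91, adjusted p = 0.0313), where 12.8% of all genes tested were higher. In that comparison 6 of the 7 had positive log2 fold changes and 1, Kdr, a negative one (-0.13). The common leukocyte gene Ptprc was at 0.186 to 0.368 FPKM in NC livers, 0.357 to 0.525 in vehicle livers and 0.0872 to 0.196 in AMSC livers. The 4 monocyte and the 10 T and NK cell markers were each below 1 FPKM in all libraries.

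Markers that do not mark class II cells also moved. The 7 neutrophil markers summed to 0.330 to 1.94 FPKM in NC livers, 7.69 to 35.3 in vehicle livers and 4.38 to 6.17 in AMSC livers. The 3 that were tested, S100a8, S100a9 and Retnlg, were higher in both comparisons with NC. They were at most 0.668 FPKM in NC livers and reached the mean needed for testing through the other groups. That filter therefore largely set their direction against NC. Csf3r, Cxcr2, Ly6g and Mmp8, below the limit for testing, did not pass against NC in the fit of all genes above 0. The 5 erythrocyte markers, which follow residual blood, summed to 135 to 254, 306 to 1406 and 183 to 312 FPKM, and 4 of them were higher in vehicle against NC, but 0 without NC replicate 1 or 2 and 2 without vehicle replicate 1 or 3. The shares of all genes tested that were higher were 12.8% in vehicle against NC and 14.1% in AMSC against NC. The mesenchymal markers, which the injected cells would carry, summed to 14.9 to 27.0, 16.3 to 34.0 and 14.1 to 19.5 FPKM, and none of the 5 tested passed in limma, with 1 higher and 0 lower at an unadjusted p below 0.05 in vehicle against NC, 1 and 2 in AMSC against vehicle and 1 and 1 in AMSC against NC. With voom, 1 was higher in each comparison with NC. Eng made up most of this sum, at 10.3 to 18.2 FPKM in NC, 9.55 to 23.1 in vehicle and 7.98 to 9.78 in AMSC livers. The sum therefore mainly follows Eng. In AMSC against vehicle, 4 of the 5 tested had negative log2 fold changes. Pdgfrb went the other way, at 0.943 to 1.33 FPKM in vehicle livers and 1.66 to 2.01 in AMSC livers. NC replicate 3 had the highest Kupffer cell, endothelial and erythrocyte sums of its group, and vehicle replicate 2 the lowest of its group. The part of these marker changes in the changes of the class II genes was not tested.

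Of the members, 6 lie between the first base of H2-K1 and the last base of H2-D1 (GRCm38 chr17:33996017-35267499), and 5 of them were higher in vehicle against NC. Of the 43 other tested genes in this interval, 5 were higher and 6 lower, where 12.8% and 13.1% of all genes tested were, and their median log2 fold change was 0.07. For AMSC against vehicle, 2 of the 6 members and 1 of the 43 other genes were lower, where 2.14% of all genes tested were. In AMSC against NC 4 of the 43 other genes were higher and 4 lower, where 14.1% and 11.9% of all genes tested were.

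Among 9690 other tested genes, those whose log2(FPKM + 1) followed the class I mean (H2-K1, H2-D1 and B2m) most closely over the 9 libraries were Ethe1, H2-T23, Bcl10, Ctla2a and the pseudogene Ap3s1-ps2, with Pearson r of 0.981, 0.975, 0.973, 0.969 and 0.967. Those closest to the class II mean (H2-Aa, H2-Ab1, H2-Eb1 and Cd74) were Col14a1, Crtap, Laptm5, Rab31 and Hpcal1, with r of 0.979, 0.965, 0.963, 0.962 and 0.961. Laptm5 encodes a lysosomal membrane protein of leukocytes, and Col14a1 a collagen. These values describe 9 libraries in 3 groups that share depth and treatment, and no p is attached to them.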

How the data were processed

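RNA of 9 mouse livers was analysed, grouped by the sample labels. The authors deposited FPKM values per gene, with gene lengths and coordinates that match GENCODE release 21 (GRCm38) for 98.33% of 54495 shared identifiers. The aligner, the counting program and the use of strand are not given in the sources used here, and the authors tested with DESeq2. Multiplied by gene length, all FPKM values above 0 were whole reads within 0.1, which gave the reads per gene. Symbols of 11 genes turned into dates were restored from their descriptions.

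Values were taken as log2(FPKM + 1), which makes changes near 0 smaller. The 9699 genes averaging 1 FPKM or more were tested with limma 3.58.1 (lmFit, eBayes with trend) in R 4.3.3, 2 groups per fit, with Benjamini-Hochberg adjustment, after the fit had been tested on simulated data. Sums and ratios were compared by exact permutation tests. The study's methods call the replicates biological, 3 per group. Figures were drawn with matplotlib 3.10.9 (Python 3.11.15).

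The members and lists were chosen with earlier results of these data known. All members are named, with up to 4 genes per list and comparison that passed with the largest change, genes that explain a count, and the 5 genes closest to each class in profile. Ctss, Cd83, H2-DMb2, Socs1, Rfx5 and Ifng were named after their values had been seen. Deviations of same-numbered NC and vehicle libraries from their group means correlated at 0.213, 0.160 and 0.378, each above 0.1. The numbers were therefore treated as a possible pairing, in the replicate block only and not in the main test. No label states a pairing, and libraries of different numbers were not correlated. The title of NC replicate 3 also carries the number 1 and another date. The alternatives tried were a lower pseudocount (0.1), all genes above 0, quantile normalization, all libraries in a fit, the replicate block, voom on recovered reads, the DEG rule and leaving out each library. Applying them to the lists was added after seeing the data. Results for some listed genes are not reported here.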

Additional observations from a re-analysis of the deposited data

How the results depend on the processing

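The number of members passing in vehicle against NC was 6, and 4 to 7 when single libraries were left out. It was 2 when all genes above 0 were tested, 4 by the DEG rule or with quantile normalization, 7 with all libraries in a fit or the replicate block, and 6 otherwise. In AMSC against vehicle it was 2, and 0 to 4 without single libraries: 0 without vehicle replicate 3, AMSC replicate 2, 3 or 4, 1 without vehicle replicate 1 and 4 without vehicle replicate 2. It was 0 when all genes above 0 were tested, 0 with the replicate block and 4 with voom. In AMSC against NC it was 1, 0 to 1 without single libraries, and 0 by the DEG rule, with all genes above 0 or with the replicate block. Testing all genes above 0 brings 24849 genes in place of 9699 into the fit. Apart from the DEG rule, the shares of all genes passing under these alternatives are not reported here. The counts therefore do not tell a change of the members from a change in the calls at large. The AMSC libraries share the numbers 2 and 3 with the other groups, with correlations of -0.104 and -0.293 to the vehicle and -0.199 and -0.309 to the NC libraries, so they share only a number, and the block leaves 2 pairs. In vehicle against NC the block changed no other member's call than that of H2-DMa. With the block, AMSC against NC gave log2 fold changes of 0.0016 for B2m, -0.066 for H2-Aa, -0.14 for H2-Ab1, -0.21 for H2-Eb1 and -0.22 for Cd74, against -0.06, 0.15, 0.24, 0.14 and 0.11 without it. The block also gave 1 peptide-loading call in this comparison in place of 6. H2-K1 was at -0.072 in this comparison with quantile normalization. Without single libraries, AMSC against NC ranged from -0.19 to 0.10 for B2m, -0.082 to 0.27 for H2-Aa, -0.11 to 0.44 for H2-Ab1, -0.10 to 0.36 for H2-Eb1 and -0.18 to 0.37 for Cd74, where the negative class II values came without NC replicate 1 and, for Cd74 (-0.03), also without AMSC replicate 2, and the positive B2m values without NC replicate 3 and AMSC replicate 4 (0.04). Nlrc5 in AMSC against vehicle ranged from -0.021 to 0.25. None of these values passed the test, and the cause of the reversals was not tested. Of the member values, no direction turned in vehicle against NC under any alternative run. Depth limits Ciita (4 to 20 reads per library) and H2-DMa (27 to 72).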
